A study of Homo sapiens with 6 samples.

Results

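The 42 genes described here encode factors that build ribosomes in the nucleolus, picked by name from the 20683 gene symbols of the count tables and sorted by role. They comprise 4 genes of RNA polymerase I (Pol I) transcription, 4 of box C/D and 3 of box H/ACA small nucleolar ribonucleoproteins (snoRNPs), 13 small-subunit factors, 14 large-subunit factors and 4 general nucleolar proteins. The cells were HT-1080, an established line from a human fibrosarcoma, exposed for 4 h to a small molecule that the series calls an inhibitor of the kinase IRAK4, or to its solvent alone. The inhibitor group (3 libraries) had the compound known by the code SLV-8472-01 at a labelled dose of 5 mM, which the labels do not separate from that of a stock. The DMSO group (3 libraries) had 0.1% DMSO and is otherwise labelled the same. All 6 libraries come from this line alone, and the series describes the 3 in each group as biological replicates without saying whether they were separate cultures, so the p-values measure the spread between these samples.

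Ribosomes are assembled around ribosomal RNA that Pol I transcribes from the ribosomal DNA repeats of the nucleolus. Box C/D snoRNPs guide methylation and box H/ACA snoRNPs guide pseudouridylation of that RNA. The small-subunit processome and the large-subunit precursor particles then cut, fold and clothe it with ribosomal proteins before both subunits leave the nucleus. Genes of this programme are textbook targets of the transcription factor MYC and are highly expressed in proliferating tumour cells.

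The libraries held 7644478 to 11427779 counts in the inhibitor group and 12003104 to 15336351 in the DMSO group, so depth moved with treatment, and the groups did not overlap in it. Each library was made by amplifying a part of each targeted transcript (the Ion AmpliSeq Transcriptome panel), so a count reports that part, and levels of different genes are not compared here. Of 6 markers fixed for fibroblasts or sarcoma, VIM, FN1, CDH2, CD44 and LGALS1 had at least 167 counts in every library and S100A4 had 21 to 37. FN1 and CD44 rose with the inhibitor (log2 fold changes of 0.49 ± 0.11 and 0.53 ± 0.14, edgeR adjusted p = 0.00364 and 0.00835), and the other 4 were not called. The epithelial marker CDH1 and the blood cell markers PTPRC and CD3E had 0 counts in every library, which allows at most 0.392 CPM in the shallowest one and covers counting error only. CD68, fixed as a blood cell marker and also known from other cells, was at 334 to 354 CPM with the inhibitor and 250.2 to 299.8 CPM with DMSO, and rose by 0.32 ± 0.10 (edgeR adjusted p = 0.0294). The part of these markers in the results that follow was not tested. EPCAM, ESRP1, KRT5, VWF and CDH5 had 0 to 3 counts a library and PECAM1 5 to 10.

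Changes among the ribosome biogenesis genes were modest, and each call was a fall. Of the 42, 13 fell with the inhibitor, 0 rose and 29 were not called (edgeR's quasi-likelihood test over all genes, Benjamini-Hochberg adjusted p under 0.05). Among all 11391 genes tested, 10.3% fell, 9.92% rose and 20.2% were called in either direction. Where the mean over all libraries reached 10 CPM (normalised counts per 1000000), a level every member exceeded, 12.1% fell and 10.4% rose. The members that fell make 31% of the list. That list was chosen with earlier results of these data known, so these shares were not compared by a test. At the ends of their range, RRP1B fell by 19.6% (a log2 fold change of -0.32) and GNL3 fell by 36% (-0.64). At an unadjusted p under 0.05, 18 members were lower and 1, NOB1, was higher. For such unadjusted counts, here and below, the share of all genes is not given, so they stand without a background. DESeq2 and limma voom also gave 13 that fell and 0 that rose.

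The median log2 fold change of the 42 was -0.13, beside 0.0034 for all genes tested. By role, the median was -0.07 for Pol I (0 of 4 fell), -0.15 for box C/D (1 of 4), -0.09 for box H/ACA (0 of 3), -0.13 for the small subunit (4 of 13), -0.19 for the large subunit (6 of 14) and -0.27 for the general nucleolar proteins (2 of 4). These classes are small and the differences between them were not tested. All 42 passed the low-count filter, with 108 to 34783 counts in a library. The count that fell was 8 without inhibitor replicate 1, 7 without DMSO replicate 2 and 6 without DMSO replicate 3. In libraries thinned to the smallest total, 13 fell and 0 rose.

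**Figure D1:**
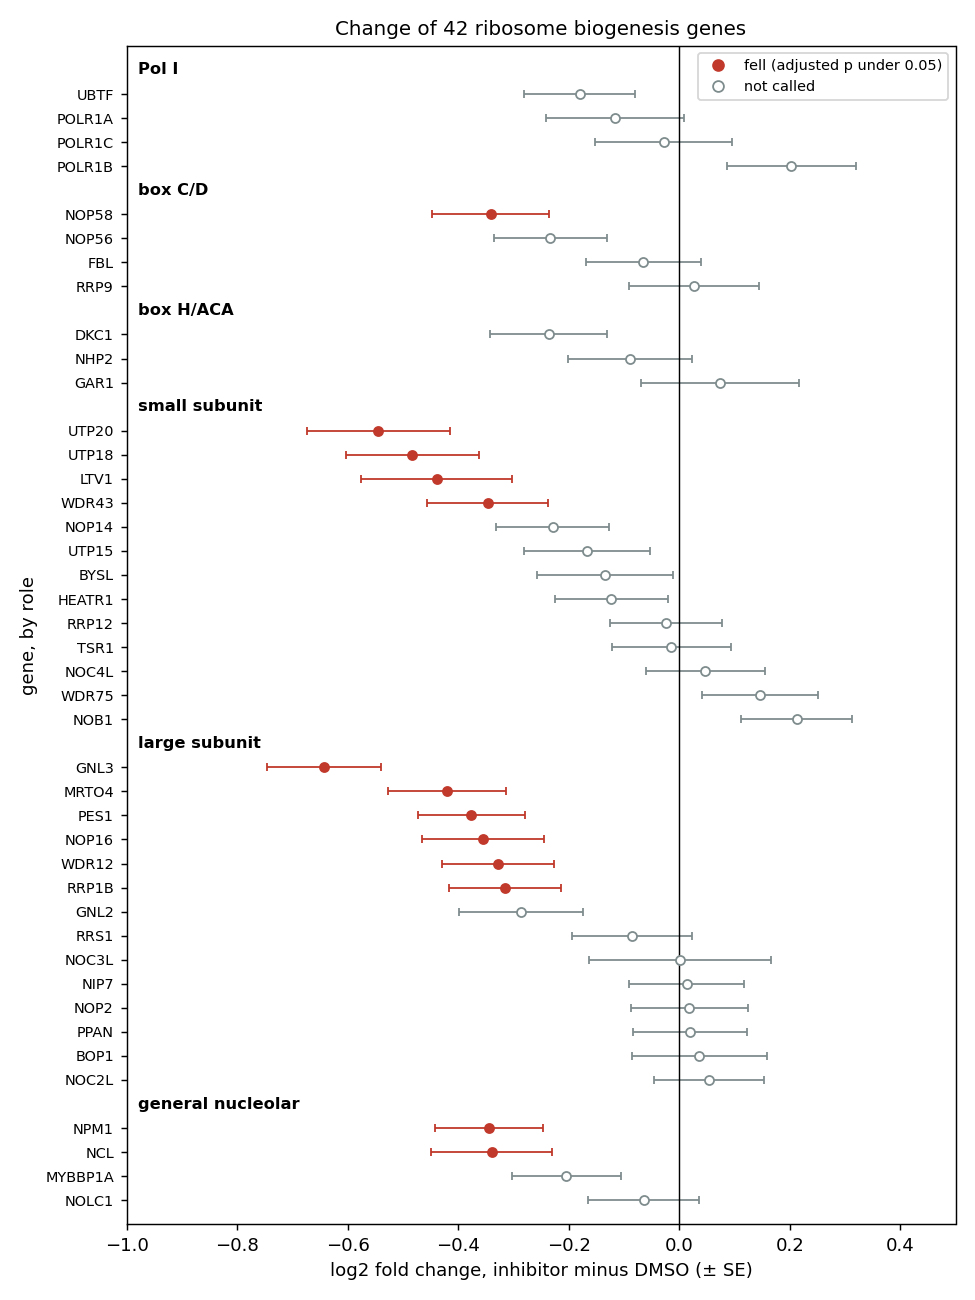
log2 fold change of each of the 42 genes (x axis, inhibitor minus DMSO, ± SE from the fit over 3 libraries per group), grouped by role down the page. Filled red points are the 13 genes that fell and open grey points the 29 not called. GNL3 lies farthest left at -0.64, and the large-subunit genes split into a set at -0.29 or lower and a set between -0.09 and 0.05.

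In every inhibitor library the members together took a smaller share of the counts. Of the raw counts, the share was 0.627%, 0.661% and 0.628% in inhibitor replicates 1, 2 and 3. It was 0.782%, 0.770% and 0.775% in DMSO replicates 1, 2 and 3. In normalised CPM the relative difference was smaller. There the 42 genes summed to 6424, 6797 and 6430 with the inhibitor and 7631, 7362 and 7731 with DMSO. The most abundant members, NPM1 and NCL, weigh heavily in that sum. Without them the other 40 genes summed to 4160, 4422 and 4241 CPM with the inhibitor and 4756, 4680 and 4629 CPM with DMSO, again without overlap. Against the DMSO mean of each gene, 29, 28 and 33 of the 42 lay lower in inhibitor replicates 1, 2 and 3. The corresponding numbers in DMSO replicates 1, 2 and 3 were 17, 22 and 24. Each DMSO library is part of the mean it is set against, so the groups are not compared like for like in these numbers. The share of all genes below that mean is not given here. Gene by gene, the groups did not overlap for 18 members that were lower with the inhibitor (18.7% of all genes tested) and for 1, NOB1, that was higher (17.7%). The median pairwise correlation of the members' deviations from the group means was 0.102, over 6 libraries that share depth and scaling. With so few libraries and no value for all genes beside it, this does not show how closely members followed each other.

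The largest fall was in a large-subunit gene. GNL3 (nucleostemin), a nucleolar GTP-binding protein known from stem and tumour cells, had 56.6, 61.4 and 56.1 CPM with the inhibitor, against 88.9, 91.8 and 91.4 CPM with DMSO. The replicates lay close together and the groups far apart. Its log2 fold change was -0.64 ± 0.10 (SE, n = 3 per group), with an edgeR adjusted p of 1.18e-04. GNL3 was the only member called in every alternative tried, with log2 fold changes from -0.72 to -0.62. It was also the only one called against a minimum fold of 1.2, where the adjusted p of the other 12 ran from 0.0638 to 0.475.

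MRTO4, which holds the place of a ribosomal stalk protein on the precursor particle, had 79.1, 95.0 and 79.1 CPM with the inhibitor, against 109.8, 118.5 and 110.6 CPM with DMSO (log2 fold change -0.42 ± 0.11, edgeR adjusted p = 0.00753). Every inhibitor library was below every DMSO library. PES1, WDR12 and BOP1 form the PeBoW complex, which is needed to process large-subunit ribosomal RNA. PES1 had 160.2, 166.6 and 171.9 CPM with the inhibitor, against 218.5, 211.7 and 216.8 CPM with DMSO (-0.38 ± 0.10, edgeR adjusted p = 0.00852). WDR12 averaged 71.3 ± 1.44 CPM with the inhibitor and 89.5 ± 2.67 CPM with DMSO (SD, n = 3 each; -0.33 ± 0.10, edgeR adjusted p = 0.0246). The third partner stayed uncalled. BOP1 had 46.7, 46.3 and 43.8 CPM with the inhibitor, against 52.8, 42.7 and 37.8 CPM with DMSO (0.04 ± 0.12, edgeR adjusted p = 0.867), and its DMSO libraries spread across the inhibitor ones. The difference in change between BOP1 and its partners was not tested.

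NOP16, a large-subunit factor, had 62.8, 78.4 and 70.4 CPM with the inhibitor, against 83.5, 97.1 and 89.7 CPM with DMSO (-0.35 ± 0.11, edgeR adjusted p = 0.0267). RRP1B averaged 137.2 ± 8.52 CPM with the inhibitor and 170.6 ± 8.37 CPM with DMSO (SD, n = 3 each; -0.32 ± 0.10, edgeR adjusted p = 0.03). Neither gene's groups overlapped. The RRP1B call survived only the loss of inhibitor replicate 3, and leaving out any other library gave an edgeR adjusted p from 0.0537 to 0.105. The NOP16 call was lost without inhibitor replicate 1 (0.121), DMSO replicate 2 (0.129) or DMSO replicate 3 (0.0576), and that of WDR12 without inhibitor replicate 1 (0.0647) or 2 (0.0648) or DMSO replicate 2 (0.0914) or 3 (0.0567).

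The other 8 large-subunit genes were not called. GNL2, a GTPase related to GNL3, came nearest: it averaged 181 ± 23.4 CPM with the inhibitor and 220.5 ± 20.8 CPM with DMSO (SD, n = 3 each; log2 fold change -0.29 ± 0.11, edgeR adjusted p = 0.0742), without overlap. GNL2 passed the threshold without inhibitor replicate 3 (edgeR adjusted p = 0.0266), with library totals as the scaling (0.0219) and without the low-count filter (0.038). The remaining genes, RRS1, NOP2, NOC2L, NOC3L, PPAN, NIP7 and BOP1, had log2 fold changes from -0.09 (RRS1) to 0.05 (NOC2L). NOP2, a methyltransferase of large-subunit ribosomal RNA, averaged 228 ± 6.63 CPM with the inhibitor and 226 ± 27 CPM with DMSO (0.02 ± 0.11).

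**Figure D2:**
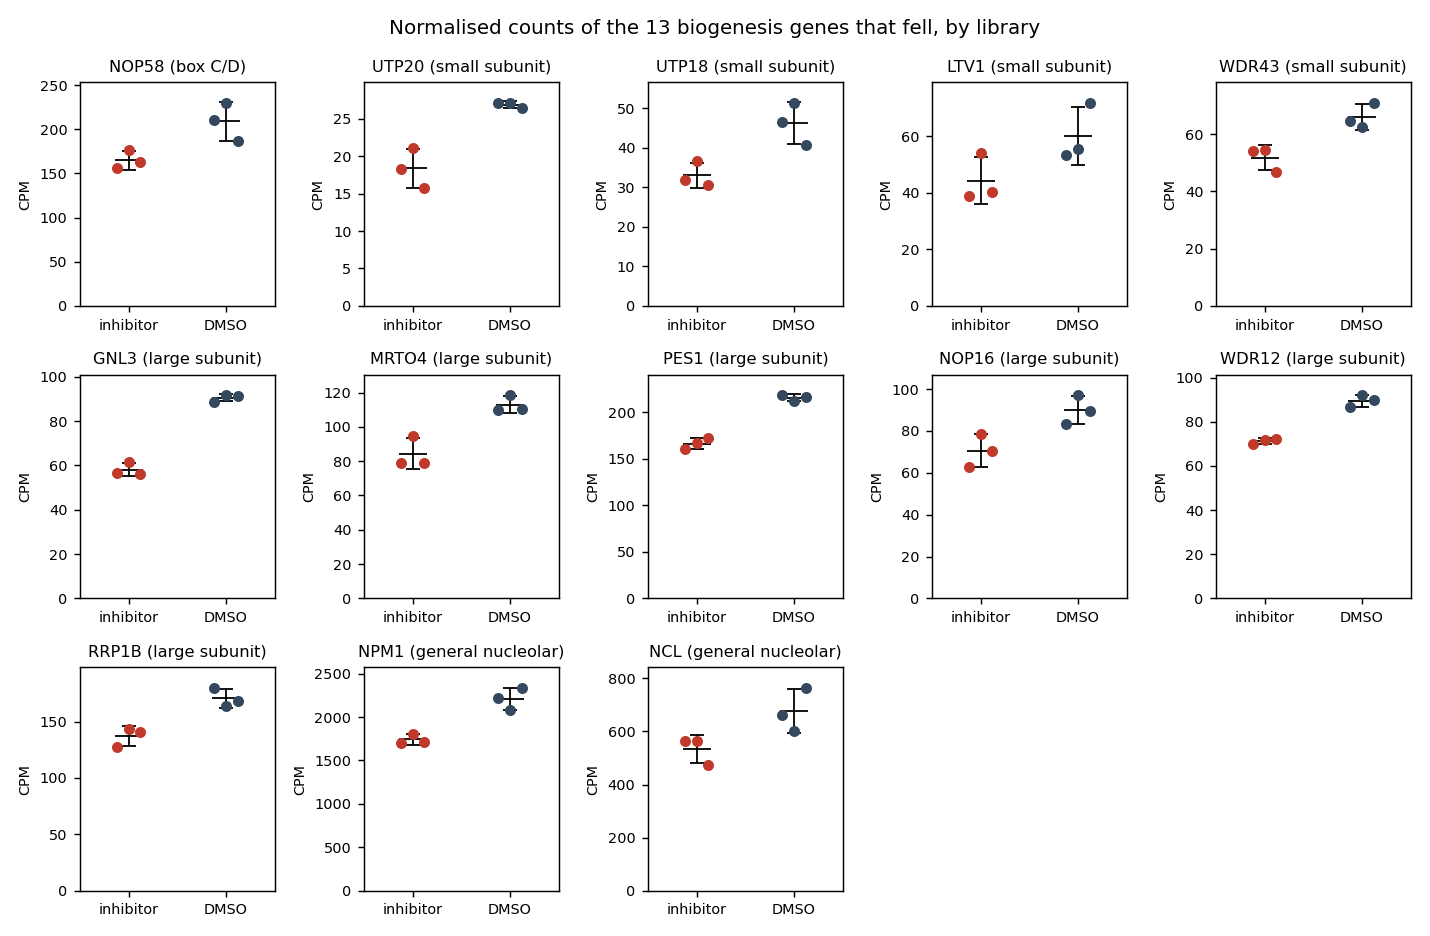
Normalised counts (CPM, y axis from 0) of the 13 genes that fell, 1 panel a gene, with inhibitor libraries in red and DMSO libraries in dark blue. Points are libraries, and bars show the mean ± SD of 3. In 12 panels each red point lies below each blue point, and LTV1 overlaps, with an inhibitor library at 54.1 CPM above a DMSO library at 53.4 CPM.

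Among small-subunit factors, the genes that fell were UTP20, UTP18 and WDR43 of the processome and the late factor LTV1. UTP20, a large scaffold protein of the processome, had 18.3, 21.1 and 15.8 CPM with the inhibitor, against 27.2, 27.2 and 26.4 CPM with DMSO (log2 fold change -0.54 ± 0.13, edgeR adjusted p = 0.00477). UTP18, another processome protein, had 31.8, 36.7 and 30.7 CPM with the inhibitor, against 46.4, 51.4 and 40.7 CPM with DMSO (-0.48 ± 0.12, edgeR adjusted p = 0.00668). All inhibitor libraries lay below all DMSO libraries for both genes, and the UTP18 call was lost without DMSO replicate 2 (edgeR adjusted p = 0.0573). WDR43, of the early processome module that joins ribosomal DNA transcription to processing, had 54.0, 54.5 and 46.9 CPM with the inhibitor, against 64.6, 62.4 and 71.0 CPM with DMSO (-0.35 ± 0.11, edgeR adjusted p = 0.0282). Those groups did not overlap, and the call was lost without inhibitor replicate 3 or any DMSO library (edgeR adjusted p from 0.0501 to 0.108).

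LTV1, which acts late on the nearly finished small subunit, had 38.8, 54.1 and 40.2 CPM with the inhibitor, against 53.4, 55.4 and 72.0 CPM with DMSO (log2 fold change -0.44 ± 0.14, edgeR adjusted p = 0.0254). It is the 1 called member whose groups overlapped, and the call was lost without inhibitor replicate 1 (0.129), inhibitor replicate 3 (0.0685) or DMSO replicate 3 (0.164). NOB1, the endonuclease of the final cut in small-subunit ribosomal RNA, lay on the other side. It had 110.1, 110.6 and 104.8 CPM with the inhibitor, against 97.1, 93.2 and 90.8 CPM with DMSO, with no overlap but without a call (0.21 ± 0.10, edgeR adjusted p = 0.139). The members WDR75, HEATR1 and UTP15, of the same early module as WDR43, did not pass the test either. Their log2 fold changes were 0.15 ± 0.10 for WDR75, -0.12 ± 0.10 for HEATR1 and -0.17 ± 0.11 for UTP15. NOP14, RRP12, NOC4L, BYSL and TSR1 were not called, with log2 fold changes from -0.23 (NOP14) to 0.05 (NOC4L).

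None of the 4 Pol I genes was called by edgeR, DESeq2 or limma voom, and 0 reached an unadjusted p under 0.05. UBTF, the factor that keeps ribosomal DNA open for Pol I, had 117.1, 108.1 and 117.2 CPM with the inhibitor, against 124.6, 127.5 and 136.0 CPM with DMSO. The inhibitor libraries were all lower, but the difference did not pass the test (log2 fold change -0.18 ± 0.10, edgeR adjusted p = 0.219). POLR1B, one of the 2 large subunits that form the catalytic core, had 101.2, 112.2 and 82.7 CPM with the inhibitor, against 91.2, 77.2 and 89.4 CPM with DMSO (0.20 ± 0.12, edgeR adjusted p = 0.234). Its groups overlapped. The largest subunit POLR1A (-0.12 ± 0.12) and POLR1C (-0.03 ± 0.12), which Pol I shares with Pol III, overlapped too. No Pol I member was called in any alternative.

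In the snoRNP classes, 1 gene of 7 fell, and it was of the box C/D kind. NOP58, a scaffold protein of box C/D particles, had 155.7, 177.0 and 162.7 CPM with the inhibitor, against 210.1, 230.2 and 186.8 CPM with DMSO (log2 fold change -0.34 ± 0.11, edgeR adjusted p = 0.0255), without overlap. The call was lost without inhibitor replicate 1 (0.0852), DMSO replicate 1 (0.0594) or DMSO replicate 2 (0.145). NOP56, its partner in the same particle, averaged 215.3 ± 20.9 CPM with the inhibitor and 253.1 ± 11 CPM with DMSO (SD, n = 3 each; -0.23 ± 0.10, edgeR adjusted p = 0.113), also without overlap. FBL, the methyltransferase of the box C/D particle, was at -0.06 ± 0.10 and RRP9, a protein of the processome's own snoRNP, at 0.03 ± 0.12.

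Of the box H/ACA proteins, DKC1 (dyskerin), the pseudouridine synthase, had 60.1, 68.0 and 65.3 CPM with the inhibitor, against 80.9, 71.5 and 75.1 CPM with DMSO. Its groups did not overlap, and the difference was not called (log2 fold change -0.24 ± 0.11, edgeR adjusted p = 0.122). NHP2 had 34.1, 39.9 and 37.9 CPM with the inhibitor, against 38.6, 41.4 and 38.8 CPM with DMSO (-0.09 ± 0.11, edgeR adjusted p = 0.624), with overlap, and GAR1 was at 0.07 ± 0.14. At an unadjusted p under 0.05, 1 of these 3 genes, DKC1, was lower, and DESeq2 and limma voom called 0. With library totals as the scaling, 17 of the 42 members fell, the additions being NOP56, DKC1, NOP14 and GNL2 (edgeR adjusted p from 0.0219 to 0.0428).

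All 4 general nucleolar genes had negative log2 fold changes, and 2 of them fell. NPM1 (nucleophosmin), an abundant chaperone of ribosomal proteins and histones, had 1699, 1810 and 1716 CPM with the inhibitor, against 2214, 2081 and 2338 CPM with DMSO (log2 fold change -0.34 ± 0.10, edgeR adjusted p = 0.0151). NCL (nucleolin), an RNA-binding protein of ribosomal RNA transcription and processing, had 565, 565 and 473 CPM with the inhibitor, against 661, 602 and 765 CPM with DMSO (-0.34 ± 0.11, edgeR adjusted p = 0.0314). Neither gene's groups overlapped. NPM1 lost its call without DMSO replicate 3 (edgeR adjusted p = 0.0684), and that of NCL without inhibitor replicate 3 (0.106), DMSO replicate 1 (0.0578) or DMSO replicate 3 (0.177). NPM1 has processed pseudogenes, so its count is uncertain where reads could be split between copies. MYBBP1A, a Myb-binding nucleolar protein, averaged 131.9 ± 5.42 CPM with the inhibitor and 152.1 ± 3.43 CPM with DMSO (SD, n = 3 each; -0.20 ± 0.10, edgeR adjusted p = 0.149), and NOLC1, a snoRNP chaperone, was at -0.06 ± 0.10.

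MYC mRNA rose, while 0 of the 42 genes did. MYC had 68.5, 65.1 and 61.6 CPM with the inhibitor, against 38.1, 37.2 and 36.1 CPM with DMSO (log2 fold change 0.81 ± 0.11, edgeR adjusted p = 1.12e-05). MYC protein was not measured, and a link between MYC and the changes of the 42 genes was not tested. The canonical E-box that MYC and related factors bind, CACGTG on both strands since it is palindromic, was looked for in the 250 bases before the start of each gene in RefSeq (GRCh38.p14). Promoters were matched for 36 of the 42 members. The E-box was present in 2 of them (5.56%), beside 9.18% of the 8918 matched promoters of tested genes. Both belong to processome genes that fell, UTP20 and UTP18, and the windows are shown with that of GNL3, the member with the largest fall, which has none. Capitals mark the E-box, and each line runs 5′ to 3′ on the plus strand and ends at the base before the start.
UTP20: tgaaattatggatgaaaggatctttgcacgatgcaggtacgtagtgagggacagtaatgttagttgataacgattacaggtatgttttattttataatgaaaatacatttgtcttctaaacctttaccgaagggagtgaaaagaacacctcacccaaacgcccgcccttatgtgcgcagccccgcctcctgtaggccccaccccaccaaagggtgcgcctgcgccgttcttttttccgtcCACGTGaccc
UTP18: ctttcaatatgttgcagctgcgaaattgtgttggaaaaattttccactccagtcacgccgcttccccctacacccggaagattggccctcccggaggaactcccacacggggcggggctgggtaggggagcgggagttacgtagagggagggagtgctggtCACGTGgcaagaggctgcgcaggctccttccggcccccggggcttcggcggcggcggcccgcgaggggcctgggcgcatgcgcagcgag
GNL3: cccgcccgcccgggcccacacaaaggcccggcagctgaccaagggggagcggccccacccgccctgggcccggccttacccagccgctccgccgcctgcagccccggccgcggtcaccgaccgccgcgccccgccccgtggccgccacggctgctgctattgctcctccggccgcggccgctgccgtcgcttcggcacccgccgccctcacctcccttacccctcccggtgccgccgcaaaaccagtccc
These windows lie at chr12:101279855-101280104 for UTP20, chr17:51260296-51260545 for UTP18 and chr3:52685670-52685919 for GNL3, all on the plus strand of GRCh38.p14. The E-box begins 10 bases before the start of UTP20 and 89 bases before that of UTP18. The ETS-type motif CCGGAA, searched on both strands and sharing no site with the E-box, was in 15 of the 36 windows (41.7%) and in 26.6% of those of tested genes. It was in 3 of the 11 matched members that fell and in 12 of the 25 not called. A match describes the letters of a window and not the binding of a factor. An absence covers only the 250 bases before the start. Bases after the start or farther upstream were not searched, nor were members without a matched promoter.

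Several members carry snoRNA genes, which encode guides for the particles described above, within their own gene bodies. In GENCODE 29 (GRCh38), 9 members enclose, on their own strand, genes of the annotated type snoRNA or scaRNA (small Cajal body RNA). Both types are counted as snoRNA genes in what follows. Of these, 4 fell (GNL3, NOP58, NCL and WDR43), with a median log2 fold change of -0.24 over the 9. Among the 33 members that host none, 9 fell, with a median of -0.12. Among 176 tested host genes that are neither members nor ribosomal protein genes, 14.2% fell and the median was -0.05. Of all 10863 tested genes matched to the annotation, 10.5% fell. The difference between members that host snoRNA genes and those that do not was not tested. The snoRNAs themselves were not measured here.

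The rest of the pathway was read from lists of other genes with the same roles. Of 87 tested biogenesis factors outside the 42, 13 fell (14.9%) and 0 rose in edgeR's test, with a median log2 fold change of -0.07. Beside them, 10.3% of all genes tested fell, and 12.1% of those with a mean of at least 10 CPM. At an unadjusted p under 0.05, 19 were lower and 6 higher, and DESeq2 called 14 falls and 2 rises. Among other small-subunit factors, 7 of 30 tested fell (23.3%), with a median of -0.18. The largest falls there were in UTP14A (-0.56 ± 0.12), the methyltransferase DIMT1 (-0.53 ± 0.12) and UTP11 (-0.48 ± 0.12). UTP14A averaged 87.2 ± 7.91 CPM with the inhibitor and 129 ± 19.2 CPM with DMSO (SD, n = 3 each; edgeR adjusted p = 0.00146). Of 34 tested large-subunit factors outside the list, 4 fell (11.8%, near the share of all genes), with a median of -0.07. They were led by CEBPZ (-0.66 ± 0.14), which averaged 26.8 ± 3.09 CPM with the inhibitor and 42.2 ± 7.88 CPM with DMSO (SD, n = 3 each; edgeR adjusted p = 0.00145), the GTPase LSG1 (-0.45 ± 0.12) and the kinase NOL9 (-0.41 ± 0.10). LSG1 was lost without inhibitor replicate 1 (edgeR adjusted p = 0.0539) or DMSO replicate 3 (0.0506).

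Of 12 other Pol I genes, 2 fell (16.7%, beside 10.3% of all genes tested, a difference that was not tested). They were NOL11 (-0.49 ± 0.11), which also belongs to the early processome module of WDR43, and TAF1B (-0.48 ± 0.14), a subunit of the Pol I promoter selectivity factor. The TAF1B call was lost without inhibitor replicate 1 (edgeR adjusted p = 0.0619), inhibitor replicate 2 (0.0514) or DMSO replicate 3 (0.0806). Over these 12 genes, the median change was 0.02, and it was -0.05 with library totals as the scaling. None of 11 other snoRNP assembly genes was called by edgeR, DESeq2 or limma voom. The 1 gene at an unadjusted p under 0.05, the helicase RUVBL2, was at 0.24 ± 0.11 (edgeR adjusted p = 0.121). Without DMSO replicate 1, 2 of the 11 rose, RUVBL2 among them (edgeR adjusted p = 0.0479). Of 12 tested genes of the RNA exosome, which trims ribosomal RNA precursors, EXOSC10 (-0.41 ± 0.12) and EXOSC9 (-0.35 ± 0.12) fell. These make 16.7% of that list, beside the same 10.3% of all genes tested. EXOSC10 was lost without inhibitor replicate 1, DMSO replicate 2 or DMSO replicate 3 (edgeR adjusted p from 0.0612 to 0.144). EXOSC9 was lost without any single library other than inhibitor replicate 2 (from 0.0513 to 0.178), with DESeq2 (0.0583), in thinned libraries (0.0548) and with a minimum of 10 CPM (0.0505).

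The other nuclear RNA polymerases were read in the same way. Of 14 Pol III genes, 3 fell and 1 rose, with a median of -0.21. The calls make 28.6% of this short list, beside 20.2% of all genes tested, and the difference was not tested. POLR3G, a subunit of proliferating and stem cells, averaged 7.33 ± 0.22 CPM with the inhibitor and 11.8 ± 0.15 CPM with DMSO (SD, n = 3 each; -0.69 ± 0.16, edgeR adjusted p = 0.00332), and POLR3E was at -0.50 ± 0.12 (edgeR adjusted p = 0.00492). POLR3D rose by 0.38 ± 0.11 (edgeR adjusted p = 0.0172), which was lost without inhibitor replicate 1 (0.0504), DMSO replicate 1 (0.117) or DMSO replicate 2 (0.0636). The Pol III median was -0.09 with a minimum of 10 CPM and -0.10 in thinned libraries. None of 8 Pol II subunit genes was called by edgeR, DESeq2 or limma voom, while 2 were lower at an unadjusted p under 0.05. POLR2B was nearest to a call (-0.29 ± 0.11, edgeR adjusted p = 0.0541), and the median of the 8 was 0.0085.

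Genes of the ribosomal proteins themselves gave few calls. Of 74 tested, 4 rose (5.41%) and 0 fell in edgeR's test, where 9.92% of all genes tested rose and 10.3% fell. The median log2 fold change of the 74 was 0.06, or -0.0096 with library totals as the scaling. At an unadjusted p under 0.05, 13 were higher and 1 was lower. DESeq2 called 6 upward and limma voom 7, and neither called a fall. RPS29 had the largest change, averaging 45.8 ± 2.84 CPM with the inhibitor and 21.1 ± 0.78 CPM with DMSO (SD, n = 3 each; 1.12 ± 0.11, edgeR adjusted p = 3.3e-07). RPLP2 (0.35 ± 0.11), RPL28 (0.32 ± 0.10) and RPL3 (0.30 ± 0.10) lost their calls with library totals as the scaling (edgeR adjusted p from 0.0521 to 0.111). They also lost them without 3 of the 6 libraries in turn for RPLP2, 4 for RPL28 and 5 for RPL3 (edgeR adjusted p from 0.0512 to 0.165). Without DMSO replicate 2 the number that rose was 1, and without DMSO replicate 1, 3 rose and 1 fell. Some of these genes, which every cell uses, had almost no counts: RPSA had 0 or 1 and RPL13A 0 to 6 in a library. Ribosomal protein genes have many processed pseudogenes, so their counts are uncertain.

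**Figure D3:**
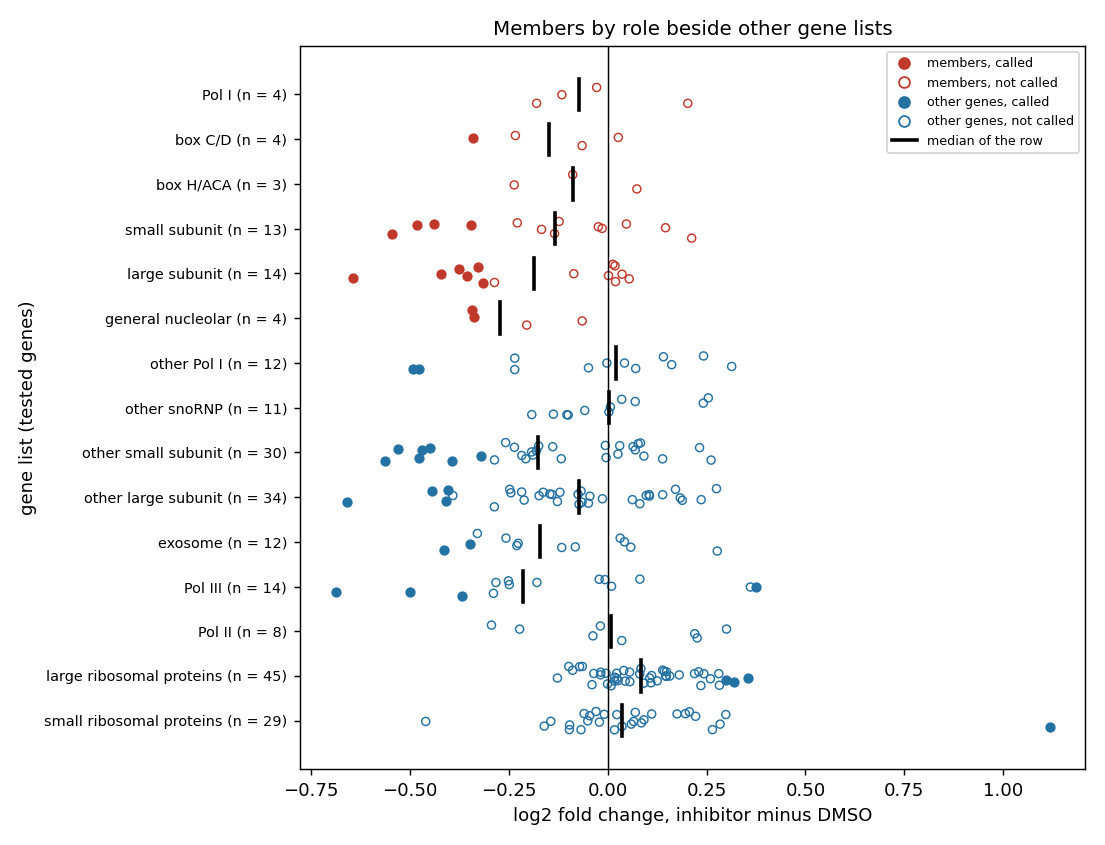
log2 fold change (x axis, inhibitor minus DMSO) of each tested gene, by list down the page: the 42 members by role in red and other lists in blue. Filled points were called, open points were not, and black bars mark the median of each list, from -0.27 for general nucleolar proteins to 0.08 for large ribosomal proteins.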

How the data were processed

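Messenger RNA of 6 HT-1080 libraries, 3 with the inhibitor and 3 with DMSO, was counted on the Ion AmpliSeq Transcriptome panel and an Ion Proton, per the labels' protocols. The deposited values are whole-number counts of reads per gene symbol, not normalized, in 1 table per library without rows of unassigned reads. The submitters' processing notes name HTSeq, DESeq2 1.20.0 and hg19 without roles. For the aligner, annotation and strand setting nothing is stated in the labels or files used here. Reads of overlapping genes (PPAN has a read-through transcript) or near-identical copies could be split or lost. No hg19 positions were used.

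The analysis used edgeR 4.0.16 under R 4.3.3. The filter filterByExpr by group left 11391 genes. TMM factors ran from 0.9735 to 0.9771 in the inhibitor libraries and from 1.003 to 1.047 in the DMSO libraries, so the scaling moved with treatment. glmQLFit and glmQLFTest tested inhibitor minus DMSO without covariates, with Benjamini-Hochberg adjustment over all genes and a call under 0.05. SE was taken from the test's F statistic (the absolute log2 fold change over the root of F). CPM are TMM-scaled. The procedure was tested on simulated counts. The smallest change set there was larger than that of most called members, so recovery of changes as small as theirs was not tested. Pairs of libraries within a group had a chi-square of 9.32 to 14.7 per degree of freedom over genes, so no library was a copy of another within sampling noise, though repeat preparations of 1 culture could differ as much. Libraries were treated as separate replicates on the word of the design text.

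Alternatives used DESeq2 1.42.0 and limma 3.58.1 (voom), other scalings and filters, a replicate block, thinned libraries, a minimum fold of 1.2 and each library left out. The members and lists were chosen with earlier results of these data known, so lists are described by counts and medians and not tested. The naming rule gives, per role, up to 4 called members with the largest change, or up to 2 with the smallest p; per other list, up to 3 called genes of at least 5 CPM, or the smallest p; and MYC. GNL2, BOP1, WDR12, RRP1B, NOB1, NOP56, NOP2 and MYBBP1A were given in more detail after their values were seen.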

Additional observations from a re-analysis of the deposited data

How the results depend on the processing

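All 13 calls held with DESeq2 size factors, library totals, either low-count filter, DESeq2, limma voom and thinning, and no called member changed sign in any alternative. Against a fold of 1.2, 1 member fell, and of all genes 449 rose and 380 fell. With each library left out in turn, 6 to 11 members fell and 0 rose, and of all genes 684 to 1133 rose and 721 to 1113 fell; in both counts over all genes the lowest value was without DMSO replicate 2. Medians over those fits ran from -0.18 to -0.10 for all members, -0.127 to -0.0247 for Pol I, -0.19 to -0.09 for box C/D, -0.14 to -0.02 for box H/ACA, -0.21 to -0.10 for the small subunit, -0.23 to -0.18 for the large subunit and -0.30 to -0.22 for the general nucleolar proteins. With library totals as the scaling, medians were -0.20 for all members, -0.14 for Pol I, -0.22 for box C/D, -0.16 for box H/ACA, -0.21 for the small subunit, -0.26 for the large subunit and -0.34 for the general nucleolar proteins, where the median of all genes was also lower at -0.07. Under that scaling there were 831 genes that rose and 1714 genes that fell.

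The replicate numbers are shared by the groups, but same-numbered libraries did not deviate together (correlations of 0.0317, -0.0166 and 0.0069 for numbers 1, 2 and 3). No library correlated best with its own number. With a replicate block the same 13 members fell and 0 rose, and 1086 of all genes rose and 1137 fell, while POLR2B was called (edgeR adjusted p = 0.0475). With 3 libraries a group, no fall smaller than that of RRP1B was called among the members, which does not show that such genes did not differ.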
